A study of Mus musculus with 113 samples.

Results

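The gene of the tumour suppressor p53, Trp53, and 9 genes that p53 activates or that act on it are described here: Mdm2, Mdm4, Ccng1, Sesn2, Trp53inp1, Phlda3, Zmat3, Bbc3 and Perp. They were listed by symbol and are 10 of the 23739 genes in the tables of the series. All 10 were present in each of the 4 tables. They passed the filter on low values in those of cell populations, and the table of single cells was tested without a further filter.

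The study followed mouse embryonic stem (ES) cells through neural induction by RNA sequencing, in 113 samples. Cells of the line R1 were induced as floating aggregates without serum (SFEB) or attached to gelatin (adherent monoculture). The SFEB cell populations form a first series of 14 samples from 0 to 142 h and a parallel series of 8 samples at 0, 9, 38, 60, 84, 106, 144 and 216 h. At those 8 hours 8 single cells each were also sequenced, 64 in all, and the adherent monoculture gave 15 samples from 0 to 216 h. The line E14 was sequenced as wild type (WT) and with the kinase gene Fyn knocked out (Fyn-KO), at day 0 and day 4 of induction, with 3 libraries in each of the 4 groups. The treatment protocol in the labels states that on day 6 cells of both protocols were replated onto dishes coated with laminin and fibronectin, those of SFEB after dissociation and in a new medium. The samples of 216 h are thus neither floating aggregates nor cells on gelatin, and the labels do not say whether those of 144 h were taken before or after replating. No other treatment is named for any group. The knockout is 1 clone that lacks the first coding exons of Fyn, so a difference from the wild type may also be a difference between clones. The labels do not say whether the 3 libraries of a group are separate cultures. A p-value from them measures the spread between these libraries, which may be technical. The time points of R1 cells have 1 library each within a series. A p-value from their courses measures the scatter of libraries about a fitted line or curve, and not the spread between cultures of 1 hour.

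p53 is a transcription factor that is kept low by Mdm2, which binds it and marks it for degradation, and that is stabilised when DNA is damaged or cells are stressed. It then activates genes that halt the cell cycle, repair DNA, change metabolism or start apoptosis, and it activates Mdm2 as well, which closes a negative feedback loop. ES cells are known for abundant Trp53 transcript and protein, and p53 is known there for a part in leaving the pluripotent state.

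Population values are FPKM, fragments scaled to transcript length and to the mapped reads of the library. The SFEB population values had further been adjusted with ComBat, a batch correction, and are called FPKM after ComBat. Single-cell values are log10(RPKM + 1) after quantile normalization. The tables hold no read counts, so the depth behind each value cannot be read from them. Tests used limma, a linear model that shares information on spread across genes, on log2(FPKM + 1), and p-values were adjusted over all genes tested by the Benjamini-Hochberg method with a threshold of 0.05. Adding 1 before the logarithm makes the change of genes at low FPKM look smaller than it is. The tables were normalized separately, so every test stays within 1 table. The genome annotation also holds a pseudogene of Trp53 (Trp53-ps) and of Mdm4 (Mdm4-ps), and whether reads were shared with them cannot be read from the tables.

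The E14 labels were first checked against Fyn itself. Fyn was at 3.21, 2.74 and 4.00 FPKM in WT at day 0 and at 0.598, 0.598 and 1.10 FPKM in Fyn-KO at day 0. At day 4 it was at 9.44, 4.54 and 6.76 FPKM in WT and at 1.19, 1.13 and 1.58 FPKM in Fyn-KO. All 6 WT libraries were above all 6 knockout libraries, as the labels have it. The mean of WT was 4.34 times that of Fyn-KO at day 0 and 5.33 times at day 4.

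Some libraries stood apart. In the first SFEB series the 2 h sample deviated from its neighbours in time by a median of 0.290 on the log2 scale. Its long transcripts, of 5000 bases or more, were lower than its short transcripts, of up to 2000 bases, by -0.61 in median log2 deviation. In the adherent monoculture the 41.5 h sample deviated by 0.273, with a difference between long and short transcripts of -0.53. The adherent 144 h sample deviated by 0.270, with a difference between long and short transcripts of -0.18. The samples of 216 h, which follow replating, deviated by 0.341 in SFEB and 0.305 in the adherent monoculture. Phlda3, Bbc3, Trp53 and Perp have transcripts of 1435 to 1901 bases, and Trp53inp1 and Zmat3 have transcripts of 5404 and 7791 bases. Among the E14 libraries, WT day 4 replicate 1 had a summed FPKM of 474 for 6 pluripotency markers, against 867 and 900 in the other WT libraries of day 4. Fyn-KO day 0 replicate 3 had correlations across genes of 0.931 and 0.946 with the other libraries of its group, which had 0.981 with each other. WT day 0 replicate 1 had correlations of 0.959 and 0.962, against 0.981 between the other 2, and without it the genes called between genotypes at day 0 went from 21 to 128. Fyn-KO day 4 replicate 1 deviated from the others of its group by a median of 0.267, with a difference between long and short transcripts of -0.19, against 0.15 in replicate 2. The fits were repeated without these samples, and the adherent sample of 144 h was left out only together with that of 216 h. Correlations and ranges over time use all samples.

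The cell types were checked with lists of marker genes. In both SFEB series the 6 pluripotency markers together went from 1272 and 1409 FPKM at 0 h to 60.8 FPKM at 142 h and 171 FPKM at 216 h, with Pou5f1 the most abundant. The 6 neural progenitor markers went from 29.7 FPKM at 0 h in the first series to 682 FPKM at 142 h and 869 FPKM at 216 h, with Fabp7 the most abundant at the end and at 0 in the 0 h sample of the parallel series. The sum for neurons, with 5 of 6 markers in the table, went from 174 and 146 FPKM to 597 FPKM at 142 h and 875 FPKM at 216 h, with Tubb3 the most abundant at the end and Dcx at 0 in the 0 h sample of the parallel series. The 10 fibroblast markers summed to 810 and 846 FPKM at 0 h, with Col1a1 at 316 and 292 FPKM, to 352 and 369 FPKM at 8 and 9 h and to 16.02 FPKM at 68 h. The study's methods state that the cells were passaged once without feeder cells before induction. Mesoderm markers, 3 of 6 in the table, summed to between 0.585 FPKM at 38 h and 32.5 FPKM at 106 h, where T made up 27.6 FPKM, and endoderm markers, 4 of 6 in the table, to between 3.44 and 21.9 FPKM. None of the 6 epidermis markers was in the SFEB, adherent or single-cell tables, and 1 of them, Trp63, is also in the list of p53 regulators used below.

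In the adherent monoculture the pluripotency sum went from 1452 FPKM at 0 h to 170 FPKM at 216 h, the neural progenitor sum from 27.0 to 442 FPKM and the neuron sum from 277 to 934 FPKM. The fibroblast sum started at 349 FPKM and ended at 48.1 FPKM. Mesoderm markers, 2 of 6 in that table, summed to between 0.235 and 23.8 FPKM, and endoderm markers, 5 of 6, to between 2.16 and 92.8 FPKM, each highest at 144 h. In E14 the pluripotency sum was 1493 to 1841 FPKM at day 0 and 474 to 1012 FPKM at day 4, in both genotypes together. The neural progenitor sum reached 146 FPKM in WT day 4 replicate 1 and was 2.07 to 38.3 FPKM in the other 11 libraries. Neuron markers summed to between 24.4 FPKM in WT day 0 replicate 2 and 208 FPKM in Fyn-KO day 0 replicate 3, with Dcx at 0 in all 6 libraries of day 0. The endoderm sum was 63.7 and 86.8 FPKM in WT day 4 replicates 2 and 3, most of it Dab2, and 7.14 FPKM in replicate 1. Fibroblast markers summed to between 2.42 and 12.7 FPKM, with Postn or Lum at 0 in each library, mesoderm markers to between 0.752 and 16.99 FPKM, and epidermis markers to between 2.98 and 27.2 FPKM, nearly all of it Tfap2c. These mixtures moved with time in each table, and their part in the changes of the 10 genes was not tested. In bulk RNA, fewer cells of a type and less RNA per cell cannot be told apart.

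The SFEB trend with time asks which genes rise or fall along the 22 population samples, with the series as a term in the model. Of the 10 genes 5 fell and none rose, beside 27.1% of all 13115 genes tested that fell, 35.1% that rose and 62.2% that passed the threshold in either direction. The median slope of the 10 was -0.09 log2 per 24 h, beside 0.01 over all genes. A spline of time, which also finds rises and falls in mid-course, passed for 7 of the 10, beside 87.6% of all genes. In the adherent trend 4 of the 10 fell and 1 rose, beside 23.4% and 35.2% of 12729 genes, and 58.6% in either direction. The median slope of the 10 there was -0.05, beside 0.02, and the spline passed for 5, beside 69.6%. When the adherent libraries were quantile normalized, the share of called genes that rose went from 60.1% to 47.99%, while the median slope of all genes stayed within 0.1 of 0.

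In E14 the change from day 0 to day 4 passed in WT for 4 of the 10 genes, 1 higher and 3 lower, beside 25.8% of 12257 genes in either direction, 15.5% higher and 10.3% lower. In Fyn-KO it passed for 4 genes, 2 higher and 2 lower, beside 19.3%, 11.8% and 7.56%. With quantile normalization the share of called genes that were higher at day 4 went from 60.1% to 50.7% in WT and from 60.9% to 51.0% in Fyn-KO. The median log2 change of the 10 was -0.44 in WT, beside 0.08 over all genes, and 0.17 in Fyn-KO, beside 0.05. The libraries of day 0 and day 4 overlapped in WT for 3 of the 10 genes, beside 57.8% of all genes, and in Fyn-KO for 5, beside 61.3%. With the replicate number as a block 6 of the 10 passed in WT, beside 29.1%, and 5 in Fyn-KO, beside 22.7%. The numbers of genes called depended on single libraries. Without WT day 4 replicate 1 none of the 10 passed in WT, beside 18.5% of all genes. In Fyn-KO 2 passed without Fyn-KO day 4 replicate 1, beside 1824 of 12194 genes, and 6 without Fyn-KO day 0 replicate 3, beside 25.1%.

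**Figure D1:**
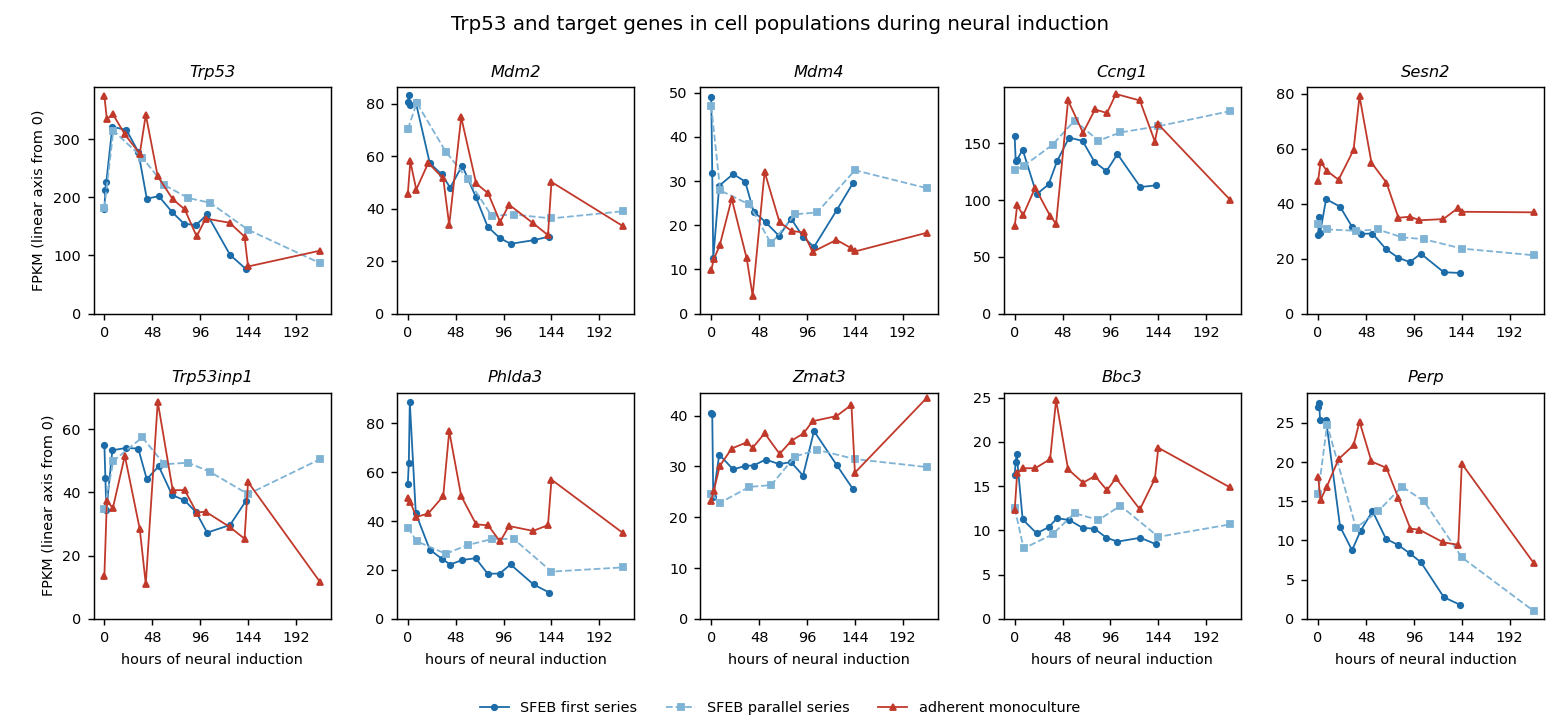
FPKM (vertical axes, 1 panel per gene) against hours of induction (horizontal axes) for the 10 genes, in the first and parallel SFEB series (FPKM after ComBat) and the adherent monoculture; each point is 1 library. Trp53 peaks at 8 and 9 h in SFEB at 321 and 314 FPKM and is highest at 0 h in the adherent monoculture at 374 FPKM.

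Trp53 encodes p53 itself. In the first SFEB series it was at 180, 212, 227, 321, 316 and 278 FPKM at 0, 1, 2, 8, 22 and 34 h. It was then at 197, 202, 174, 154, 152 and 171 FPKM at 42.5, 54.5, 68, 80, 92 and 103 h, and at 101 and 76.3 FPKM at 126 and 142 h. In the parallel series it was at 182, 314, 268, 221, 199, 190, 144 and 86.8 FPKM at 0, 9, 38, 60, 84, 106, 144 and 216 h. Both series were thus highest at 8 or 9 h, below their 0 h value from 68 h and from 144 h on, and lowest at their last sample. Over the 22 samples Trp53 fell by 0.20 log2 per 24 h (SE 0.0288, limma adjusted p 4.54e-06), and the spline gave an adjusted p of 1.09e-06. The trend passed under all 9 alternatives, with adjusted p from 6.30e-08 to 0.00463. The series differed most at the end: at 142 and 144 h the parallel series held 1.89 times the Trp53 of the first, while at 8 and 9 h the ratio was 0.980.

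In the adherent monoculture Trp53 was at 374, 334, 343, 308, 275 and 342 FPKM from 0 to 41.5 h. From 53.5 h on the values were 236, 197, 179, 133, 163, 156, 132, 80.8 and 108 FPKM, the last being of 216 h. Every sample up to 41.5 h was above every later sample, and the highest value was that of 0 h. The slope was -0.24 log2 per 24 h (SE 0.0279, limma adjusted p 2.57e-06), with adjusted p from 6.20e-07 to 0.000303 over 8 alternatives.

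In E14 Trp53 was at 235, 189 and 239 FPKM in WT at day 0 and at 118, 136 and 163 FPKM at day 4. In Fyn-KO it was at 161, 164 and 191.9 FPKM at day 0 and at 81.0, 138 and 87.9 FPKM at day 4. All libraries of day 4 were below all libraries of day 0 in each genotype. Trp53 fell by 0.67 log2 in WT (SE 0.196, limma adjusted p 0.0267) and by 0.78 log2 in Fyn-KO (SE 0.196, limma adjusted p 0.0181). The interaction of genotype and day was -0.11 log2 (p 0.698, adjusted p 0.997). The WT call was lost without WT day 0 replicate 1 (adjusted p 0.0685), without WT day 0 replicate 3 (0.0880), without WT day 4 replicate 1 (0.0942) and without WT day 4 replicate 2 (0.0616). Over all 17 alternatives its adjusted p ran from 0.00984 to 0.0942. The Fyn-KO call was lost without Fyn-KO day 0 replicate 2 (adjusted p 0.0512), without Fyn-KO day 4 replicate 1 (0.0628) and without Fyn-KO day 4 replicate 3 (0.0751), in a range from 0.00452 to 0.0751.

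Genes whose course was most like that of Trp53 were found by the lower of 2 Pearson correlations, over the 22 SFEB and the 15 adherent samples, among 12553 genes. They were L3mbtl2 (0.967 and 0.989), Asna1 (0.958 and 0.966), Pelp1 (0.953 and 0.964), Dhx8 (0.952 and 0.957) and Trmt1 (0.952 and 0.965). Of the other 9 genes Sesn2 came first, at rank 779 with 0.876 and 0.770, then Perp at rank 1911 with 0.802 and 0.581, Phlda3 at 2736, Mdm2 at 2855 and Bbc3 at 3972. Trp53inp1 was at rank 4911, Mdm4 at 6020, Zmat3 at 7481 and Ccng1 at 8353, with -0.06 and -0.66. These correlations describe courses that share a time axis and the libraries, and carry no test.

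Mdm2 encodes the ubiquitin ligase that marks p53 for degradation and is itself a p53 target. Its SFEB values ran from 26.6 FPKM at 103 h over a median of 49.6 FPKM to 83.4 FPKM at 1 h. All 6 samples of the first 9 h were at 70.3 FPKM or above and all others at 61.7 FPKM or below. Mdm2 fell by 0.20 log2 per 24 h (limma adjusted p 1.86e-06, spline 1.22e-10), and both passed under all 9 alternatives. The adherent monoculture ran from 29.9 FPKM at 140.5 h over 45.8 to 74.8 FPKM at 53.5 h, with 45.6 FPKM at 0 h and no high start. It fell by 0.08 log2 per 24 h there (limma adjusted p 0.0322), a call that was lost without the 216 h sample (0.0775), with quantile normalization (0.0627) and with the samples from 20 h on (0.0699), in a range from 0.0132 to 0.0775. Its spline did not pass (0.124) but did without the 41.5 h sample (0.0156), where Mdm2 was at 33.7 FPKM between 51.5 and 74.8 FPKM at the neighbouring hours, in a range from 0.0156 to 0.265. In E14 Mdm2 was at 32.8, 47.6 and 42.7 FPKM in WT at day 0 and 26.5, 33.5 and 29.1 FPKM at day 4, and at 27.8, 38.1 and 40.4, then 44.5, 33.6 and 28.8 FPKM in Fyn-KO. The groups overlapped, and neither change passed (-0.44 log2, adjusted p 0.124, and 0.00315 log2, adjusted p 0.993).

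Mdm4 encodes a relative of Mdm2 that binds p53 and holds its activity down. Its SFEB values ran from 12.5 FPKM in the 2 h sample over a median of 24.1 to 49.0 FPKM at 0 h, and the other 0 h sample was at 46.9 FPKM. After 0 h no sample was above 32.4 FPKM. Neither the trend (-0.04 log2 per 24 h, adjusted p 0.381) nor the spline (0.0653) passed. The spline passed without the 2 h sample (0.000145), without the 216 h sample (0.0167), with the samples from 20 h on (0.00193) and in the parallel series alone (0.0118), in a range from 0.000145 to 0.408. Adherent Mdm4 ran from 4.04 FPKM in the 41.5 h sample over 15.4 to 32.1 FPKM at 53.5 h, the next hour sampled. Its trend did not pass (0.04, adjusted p 0.541), and its spline passed only without the 41.5 h sample (0.0476, against 0.845 with it), in a range from 0.0476 to 0.988. In E14 Mdm4 was at 30.6, 34.5 and 30.2 FPKM in WT at day 0 and 24.04, 28.5 and 18.2 FPKM at day 4. The Fyn-KO libraries were at 34.4, 39.3 and 32.9 FPKM, then 26.4, 28.9 and 23.2 FPKM. Day 4 was below day 0 without overlap in both genotypes, yet neither change passed (-0.43 log2 in each, adjusted p 0.0684 in WT and 0.0824 in Fyn-KO). With the replicate number as a block in the model, both did (0.0218 and 0.0278). The WT change also passed without WT day 4 replicate 2 (0.0282) and the Fyn-KO change without WT day 4 replicate 3 (0.0486), in ranges from 0.0218 to 0.231 and from 0.0278 to 0.253.

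Ccng1 encodes cyclin G1, a p53 target that recruits a phosphatase to Mdm2. It was the most even of the 10 in SFEB, between 105 FPKM at 22 h and 178 FPKM at 216 h with a median of 138, a 1.70-fold range. Neither its trend (0.01 log2 per 24 h, adjusted p 0.527) nor its spline (0.790) passed. The trend passed in the parallel series alone (0.05, adjusted p 0.0352), while in the first series alone it was -0.03, in a range of adjusted p from 0.0352 to 0.965. The spline passed in the parallel series alone (0.0116) and with the samples from 20 h on (0.00683), in a range from 0.00683 to 0.790. Adherent Ccng1 was at 76.8, 95.3, 86.7, 111, 86.1 and 79.0 FPKM up to 41.5 h. It was at 188, 159, 180, 177, 193, 188, 152 and 167 FPKM from 53.5 to 144 h and at 100 FPKM at 216 h. The samples from 53.5 to 144 h were all above the others. The spline passed (limma adjusted p 0.000354) and the trend did not (0.09 log2 per 24 h, adjusted p 0.0767). Without the 216 h sample the slope was 0.19 (adjusted p 0.000878), without the samples of 144 and 216 h 0.22 (0.00104) and with quantile normalization 0.12 (0.0372), in a range from 0.000878 to 0.577.

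In E14 Ccng1 was at 90.1, 97.7 and 79.7 FPKM in WT at day 0 and 111, 152 and 106 FPKM at day 4. The Fyn-KO libraries were at 67.2, 83.4 and 66.0 FPKM, then 168, 105 and 102 FPKM. Day 4 was above day 0 without overlap in both genotypes. Ccng1 rose by 0.75 log2 in Fyn-KO (SE 0.203, limma adjusted p 0.0245), and the change in WT, 0.44 log2, did not pass (adjusted p 0.130). The interaction was 0.31 log2 (p 0.306, adjusted p 0.997), so a difference between the genotypes was not shown. The Fyn-KO call was lost without Fyn-KO day 0 replicate 1 (adjusted p 0.0829) and without Fyn-KO day 4 replicate 1 (0.0720), in a range from 0.0148 to 0.0829.

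Sesn2 encodes sestrin 2, a stress-induced protein that restrains the growth kinase mTORC1 and limits oxidative damage. In the first SFEB series it went from 28.6 FPKM at 0 h to 41.6 FPKM at 8 h and 14.8 FPKM at 142 h, and in the parallel series from 32.5 FPKM at 0 h to 21.2 FPKM at 216 h, with a median of 28.8 FPKM over both. It fell by 0.13 log2 per 24 h (limma adjusted p 2.17e-05, spline 7.39e-06), and both passed under all 9 alternatives. Adherent Sesn2 ran from 33.9 FPKM at 101.5 h over 47.6 to 79.1 FPKM at 41.5 h. All 8 samples up to 68.5 h were at 47.6 FPKM or above and all 7 later samples at 38.5 FPKM or below. It fell by 0.09 log2 per 24 h (limma adjusted p 0.00727, spline 0.00145), under all 8 alternatives.

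In E14 Sesn2 was at 25.7, 30.7 and 31.6 FPKM in WT at day 0 and 19.8, 22.3 and 20.7 FPKM at day 4. The Fyn-KO libraries were at 36.7, 43.2 and 40.3 FPKM, then 20.1, 28.0 and 23.9 FPKM. Day 4 lay below day 0 in each genotype, and at day 0 the knockout lay above the wild type, each without overlap. Sesn2 fell by 0.46 log2 in WT (SE 0.143, limma adjusted p 0.0333) and by 0.73 log2 in Fyn-KO (SE 0.143, limma adjusted p 0.00581), with an interaction of -0.26 (p 0.219, adjusted p 0.997). The Fyn-KO call held in all 17 alternatives, with adjusted p from 0.00237 to 0.0319. The WT call was lost without WT day 0 replicate 2 (0.107), without WT day 0 replicate 3 (0.110), without WT day 4 replicate 1 (0.0936) and without WT day 4 replicate 3 (0.0777), in a range from 0.0123 to 0.110.

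**Figure D2:**
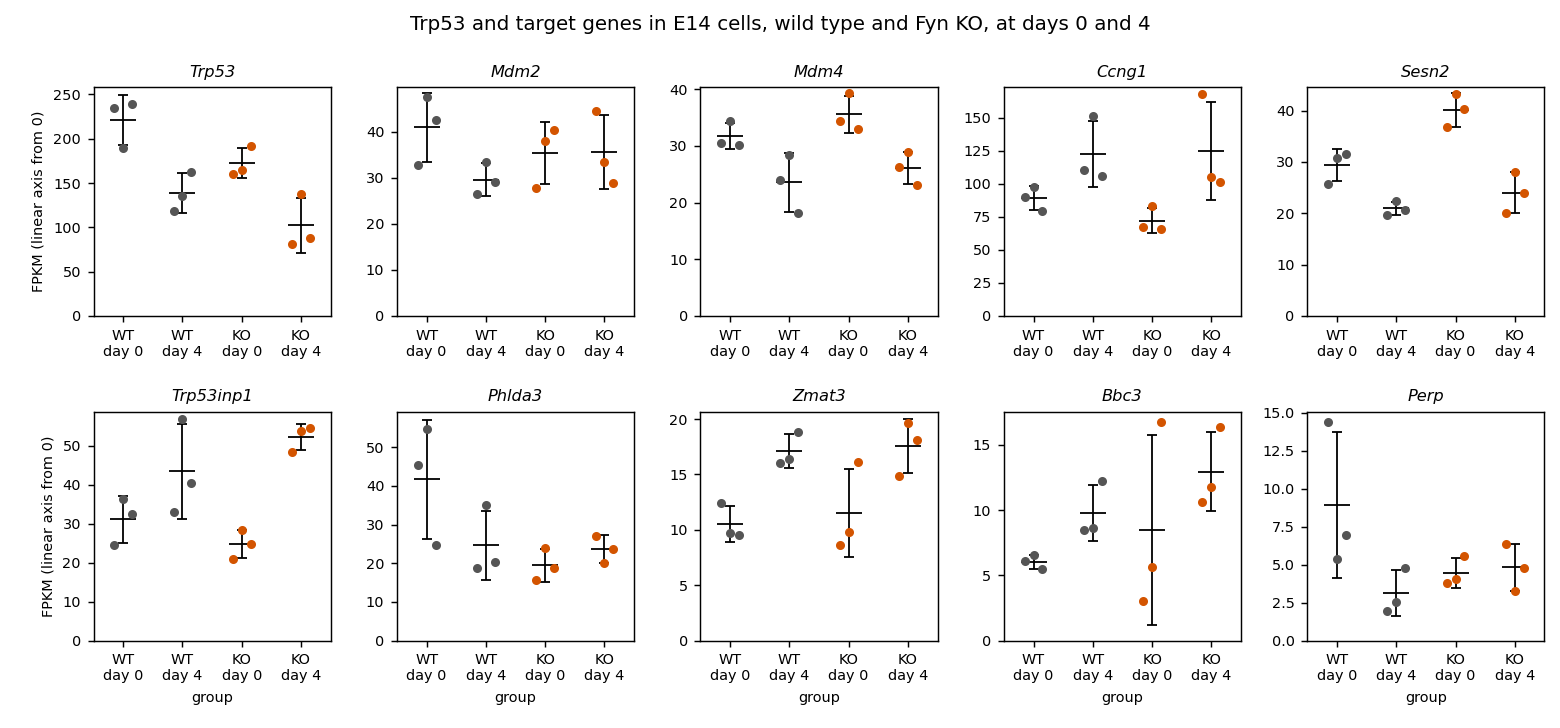
FPKM (vertical axes, 1 panel per gene) of the 10 genes in the 12 E14 libraries, by genotype and day (horizontal axes). Each point is 1 library. Each horizontal tick is the mean of the 3 libraries of a group and each capped vertical bar their SD. Trp53 and Sesn2 lie lower at day 4 than at day 0 in both genotypes, and Perp in WT, where 1 library of day 0 is at 14.4 FPKM.

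Trp53inp1 encodes a stress protein that takes part in p53 activation and in autophagy. Its SFEB values ran from 27.3 FPKM at 103 h over a median of 45.5 to 57.4 FPKM at 38 h. The series started apart, at 55.1 FPKM in the first and 34.7 FPKM in the parallel series at 0 h. The trend did not pass (-0.05 log2 per 24 h, adjusted p 0.113), and the spline did (0.00319). The trend passed in the first series alone (-0.11, adjusted p 0.00789), without the 216 h sample (0.0260), without the samples of 0 h (0.0296) and from 20 h on (0.0175), in a range from 0.00789 to 0.814. The spline call was lost in the parallel series alone (0.0829), in a range from 0.000150 to 0.0829. Adherent Trp53inp1 was lowest in the 41.5 h sample at 11.03 FPKM, near 13.5 FPKM at 0 h and 11.7 FPKM at 216 h, and highest at 53.5 h at 68.6 FPKM, with a median of 33.9. Neither trend (-0.06, adjusted p 0.500) nor spline (0.217) passed, and without the 41.5 h sample the spline did (0.0216), in a range from 0.0216 to 0.830.

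In E14 Trp53inp1 was at 24.6, 36.3 and 32.6 FPKM in WT at day 0 and 32.9, 56.9 and 40.5 FPKM at day 4. The Fyn-KO libraries were at 21.1, 28.4 and 24.8 FPKM, then 48.4, 53.8 and 54.6 FPKM. The knockout days did not overlap and the wild-type days did. Trp53inp1 rose by 1.06 log2 in Fyn-KO (SE 0.202, limma adjusted p 0.00506), a 2.08-fold change that passed in all 17 alternatives, with adjusted p from 0.000955 to 0.0257. The change of 0.45 log2 in WT did not pass (adjusted p 0.124), and did with a replicate block (0.0287), in a range from 0.0287 to 0.390. The interaction was 0.61 log2 (p 0.0554, adjusted p 0.997).

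Phlda3 encodes a small protein that competes with the kinase Akt for membrane lipids. In the first SFEB series it was at 55.3, 63.9 and 88.7 FPKM at 0, 1 and 2 h and ended at 10.7 FPKM at 142 h, an 8.30-fold range whose top is the 2 h sample. The parallel series went from 37.3 FPKM at 0 h to 19.3 FPKM at 144 h and 21.1 FPKM at 216 h. The median over both was 25.7 FPKM. Phlda3 fell by 0.21 log2 per 24 h (limma adjusted p 0.000189, spline 3.73e-05). The trend passed under all 9 alternatives, without the 2 h sample too, with adjusted p from 1.73e-05 to 0.0331. The spline was lost in the parallel series alone (0.102), in a range from 7.15e-08 to 0.102. Adherent Phlda3 ran from 31.7 FPKM at 92.5 h over 41.7 to 76.9 FPKM in the 41.5 h sample. Its slope of -0.05 did not pass (adjusted p 0.153), nor did the spline (0.332), which passed without the 216 h sample (0.0293) and without the samples of 144 and 216 h (0.0221), in a range from 0.0221 to 0.455.

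In E14 Phlda3 was at 45.5, 54.7 and 24.8 FPKM in WT at day 0 and 18.6, 34.9 and 20.3 FPKM at day 4. The Fyn-KO libraries were at 15.5, 24.04 and 18.8 FPKM, then 27.1, 20.01 and 23.8 FPKM. All WT libraries of day 0 lay above all knockout libraries of day 0, the closest being 24.8 and 24.04 FPKM, while the other groups overlapped. The change in WT, -0.72 log2, did not pass (adjusted p 0.0984). It was -1.04 without WT day 0 replicate 3 (0.0271) and -0.99 without WT day 4 replicate 2 (0.0368), in a range from 0.0271 to 0.319. In Fyn-KO it was 0.28 log2 (adjusted p 0.541).

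Bbc3 encodes Puma, a BH3-only protein that starts apoptosis at mitochondria. Its SFEB values ran from 7.96 FPKM at 9 h over a median of 10.5 to 18.6 FPKM in the 2 h sample. The samples of 0, 1 and 2 h of the first series, at 16.3, 17.7 and 18.6 FPKM, were above all others. The trend just missed (-0.06 log2 per 24 h, adjusted p 0.0526), and the spline passed (0.0346). The trend passed in the first series alone (-0.14, adjusted p 0.00176), with no series term (0.0407) and without the 216 h sample (0.0177), and in the parallel series alone the slope was 0.00528 (0.891), in a range from 0.00176 to 0.891. The spline was lost without the 2 h sample (0.121), without the samples of 0 h (0.159), from 20 h on (0.1501) and in the parallel series alone (0.938), in a range from 0.000353 to 0.938. Adherent Bbc3 ran from 12.3 FPKM at 0 h over 16.1 to 24.7 FPKM in the 41.5 h sample, and neither trend (-0.01, adjusted p 0.643) nor spline (0.308) passed. In E14 it was at 6.12, 6.54 and 5.48 FPKM in WT at day 0 and 8.51, 8.64 and 12.3 FPKM at day 4, and at 3.002, 5.67 and 16.7, then 10.7, 11.8 and 16.4 FPKM in Fyn-KO. The WT days did not overlap and the knockout days did, through Fyn-KO day 0 replicate 3. Neither change passed (0.60 log2, adjusted p 0.308, and 0.82 log2, adjusted p 0.183). Without that replicate the Fyn-KO change was 1.41 log2 (0.00302), in a range from 0.00302 to 0.571.

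Perp encodes a membrane protein of desmosomes that p53 activates in apoptosis. It moved most of the 10 in SFEB. In the first series it was at 27.0, 27.5, 25.3 and 25.4 FPKM from 0 to 8 h, between 7.22 and 13.7 FPKM from 22 to 103 h, and at 2.76 and 1.80 FPKM at 126 and 142 h. In the parallel series it was at 15.98, 24.8, 11.6, 13.7, 16.9, 15.02, 7.84 and 1.00 FPKM from 0 to 216 h. Both series were lowest at their last sample, and at 142 and 144 h they were at 1.80 and 7.84 FPKM after ComBat. Perp fell by 0.39 log2 per 24 h (SE 0.0437, limma adjusted p 1.17e-07, spline 8.18e-08), under all 9 alternatives, with adjusted p of the trend from 1.18e-07 to 0.00430. Adherent Perp ran from 7.13 FPKM at 216 h over 16.8 to 25.2 FPKM at 41.5 h, with 19.8 FPKM at 144 h between 9.45 FPKM at 140.5 h and the last sample. It fell by 0.14 log2 per 24 h (limma adjusted p 0.00299, spline 0.00346), under all 8 alternatives.

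In E14 Perp was at 14.4, 5.38 and 6.97 FPKM in WT at day 0 and 1.95, 2.57 and 4.81 FPKM at day 4. In Fyn-KO it was at 3.79, 4.03 and 5.59 FPKM, then 6.37, 3.27 and 4.81 FPKM. The WT days did not overlap, though 5.38 and 4.81 FPKM came close, and the knockout days did. Perp fell by 1.23 log2 in WT (SE 0.347, limma adjusted p 0.0238), a 2.34-fold change, and the Fyn-KO change was 0.07 log2 (adjusted p 0.910), or -0.09 with quantile normalization. The interaction of 1.29 log2 (SE 0.491, p 0.0222, adjusted p 0.997) did not pass. The WT call was lost without WT day 0 replicate 1 (-0.86 log2, adjusted p 0.0738), without WT day 4 replicate 1 (-1.02, 0.0848) and without WT day 4 replicate 2 (-1.15, 0.0634), in a range from 0.0168 to 0.0848.

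Zmat3 encodes a zinc-finger protein that binds RNA and acts on splicing and transcript stability. In SFEB it stayed between 22.9 FPKM at 9 h and 40.6 FPKM at 0 h with a median of 30.2, and the series differed at 0 h, at 40.6 and 24.5 FPKM. Neither trend (0.01 log2 per 24 h, adjusted p 0.645) nor spline (0.815) passed. The slope was -0.03 in the first series alone, and the spline passed in the parallel series alone (0.0200), in a range from 0.0200 to 0.836. Adherent Zmat3 went from 23.2 FPKM at 0 h over a median of 34.7 to 42.1 FPKM at 140.5 h and 43.5 FPKM at 216 h, with 28.8 FPKM at 144 h. Alone of the 10 it rose in the adherent trend, by 0.07 log2 per 24 h (limma adjusted p 0.00694, spline 0.00516). With the samples from 20 h on both calls were lost (0.172 and 0.491), in ranges from 0.000649 to 0.172 and from 0.000274 to 0.491.

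In E14 Zmat3 was at 12.4, 9.68 and 9.53 FPKM in WT at day 0 and 16.02, 16.4 and 18.8 FPKM at day 4. In Fyn-KO it was at 8.66, 9.79 and 16.1 FPKM, then 14.9, 19.7 and 18.1 FPKM. The WT days did not overlap, and the knockout days did through Fyn-KO day 0 replicate 3. Zmat3 rose by 0.65 log2 in WT (SE 0.209, limma adjusted p 0.0386). The Fyn-KO change of 0.60 log2 did not pass (adjusted p 0.0634), and the interaction was -0.05 (p 0.870, adjusted p 0.998). The WT call was lost with no filter on low values (0.0553), without WT day 0 replicates 2 (0.119) or 3 (0.117), without WT day 4 replicates 1 (0.0680), 2 (0.0681) or 3 (0.111) and without Fyn-KO day 4 replicate 3 (0.0518), in a range from 0.00987 to 0.119. The Fyn-KO change passed without Fyn-KO day 0 replicate 3 (0.85 log2, adjusted p 0.00528) and with upper quartile scaling (0.0418), in a range from 0.00528 to 0.220.

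Knockout and wild type were compared at each day, with libraries that the comparisons of days also use. At day 0 none of the 10 genes passed, beside 0.171% of all genes, 0.0408% higher and 0.131% lower in the knockout. These are 21 genes, a number that ran from 4 to 128 when single libraries were left out, and 1785 genes had an unadjusted p under 0.05. Among the 10 these were Phlda3 (-1.01 log2, p 0.00565, adjusted p 0.157), Sesn2 (0.44, p 0.00986, adjusted p 0.190) and Perp (-0.77, p 0.0478, adjusted p 0.339). The median difference of the 10 was -0.26, beside 0.00308 over all genes. At day 4 none passed either, beside 0.0734%, 0.00816% higher and 0.0653% lower. These are 9 genes, with 5 to 14 when single libraries were left out, 17 with quantile normalization and 24 with no filter on low values. An unadjusted p under 0.05 was found for 1483 genes, among them Trp53 (-0.47, p 0.0358, adjusted p 0.372). At day 0 the groups overlapped for 8 of the 10 genes, beside 78.6% of all genes, and at day 4 for all 10, beside 83.5%. The median difference at day 4 was 0.17, beside -0.03. The interaction passed for none of the 10, beside 0.00% of all genes, with 537 genes at an unadjusted p under 0.05, among them Perp and Phlda3 (1.00 log2, p 0.0366, adjusted p 0.997). Its median over the 10 was 0.26, beside -0.03.

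A list of 23 other p53 targets was read in the same fits. In SFEB 4 rose and 12 fell of 23 tested, beside 35.1% and 27.1% of all genes. The rises were in Ercc5 (0.13 log2 per 24 h), Btg2 (0.12), Apaf1 (0.07) and Sesn1 (0.05), and the 5 largest falls in Gdf15 (-0.43), Pmaip1 (-0.27), Gadd45a (-0.24), Gtse1 (-0.22) and Fas (-0.19). The median of the list was -0.08, beside 0.01, and its spline passed for 22, beside 87.6%. In the adherent monoculture 7 rose and 8 fell of 22 tested, beside 35.2% and 23.4% of all genes, led by Ddit4 (0.24), Ercc5 (0.15), Btg2 (0.15), Apaf1 (0.12) and Xpc (0.09) and by Gdf15 (-0.41), Gadd45a (-0.26), Gtse1 (-0.18), Pmaip1 (-0.13) and Tigar (-0.12), named 9630033F20Rik in the tables. The median was -0.01, beside 0.02, and the spline passed for 17, beside 69.6%. The call of Btg2 in SFEB was lost in the first series alone (adjusted p 0.353) and that of Apaf1 in the parallel series alone (0.227) and from 20 h on (0.370). Sesn1 was lost in 6 of 9 alternatives, among them those without the 2 h sample (0.0573) and without the 216 h sample (0.230), and Fas in the parallel series alone (0.314) and from 20 h on, where its slope was 0.00249 (0.922). The adherent call of Pmaip1 was lost without the 216 h sample (0.422), without those of 144 and 216 h (0.595) and from 20 h on (0.0919), and that of Apaf1 from 20 h on (0.0642). The adjusted p over the alternatives ran from 6.36e-05 to 0.353 for Btg2, from 0.000358 to 0.370 for Apaf1 in SFEB and from 0.000658 to 0.0642 in the adherent monoculture. It ran from 0.0326 to 0.398 for Sesn1, from 0.000642 to 0.922 for Fas and from 0.00426 to 0.595 for Pmaip1.

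In E14 7 of the 21 other targets tested passed in WT, beside 25.8% of all genes, and 6 in Fyn-KO, beside 19.3%. Cdkn1a, which encodes the cell cycle inhibitor p21, was at 68.1, 120 and 82.8 FPKM at day 0 and 13.9, 29.3 and 23.4 FPKM at day 4 in WT. In Fyn-KO it was at 110, 111 and 47.5 FPKM, then 37.0, 33.4 and 22.0 FPKM. The days did not overlap in either genotype. Cdkn1a fell by 2.00 log2 in WT (limma adjusted p 0.00296) and by 1.44 log2 in Fyn-KO (0.0181). Gdf15 changed by -2.62 log2 (0.00821) and -2.27 log2 (0.0202), and Tigar by -1.74 log2 (0.00197) and -1.25 log2 (0.0125). Pmaip1, which encodes the BH3-only protein Noxa, went against the direction of Cdkn1a. It was at 1.402, 2.25 and 2.62 FPKM at day 0 and 6.85, 6.19 and 9.70 FPKM at day 4 in WT, and at 1.397, 0.563 and 2.56, then 23.8, 5.10 and 15.5 FPKM in Fyn-KO. It rose by 1.47 log2 in WT (0.0325) and 2.52 log2 in Fyn-KO (0.00391). Plk2 fell by 1.17 log2 (0.0330), Gtse1 fell by 0.62 log2 (0.0165) and Ercc5 rose by 0.76 log2 (0.0472) in WT. Btg2 rose by 0.89 log2 (0.0420) and Tnfrsf10b by 0.71 log2 (0.0211) in Fyn-KO. The list's median was -0.02 in WT, beside 0.08 over all genes, and 0.28 in Fyn-KO, beside 0.05, and no gene of it passed between the genotypes or in the interaction. Of 17 alternatives 12 ended the WT call of Ercc5, 7 that of Pmaip1, 6 that of Plk2, 2 that of Gtse1 and 0 those of Gdf15, Cdkn1a and Tigar. In Fyn-KO 10 ended the call of Btg2, the replicate block (0.0549) and no filter on low values (0.0702) among them. Those of Cdkn1a, Gdf15 and Tnfrsf10b were ended by 3 each, that of Tigar by 1 and that of Pmaip1 by 0.

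A list of 22 regulators and partners of p53 gave 6 rises and 8 falls of 21 tested in SFEB, beside 35.1% and 27.1% of all genes. The largest rises were in Hipk2 (0.28 log2 per 24 h), Trp53bp1 (0.16), Rfwd2 (0.09), Trp53bp2 (0.09) and Atm (0.08), and the largest falls in Cdkn2a (-0.43), Trp73 (-0.21), Npm1 (-0.10), Chek2 (-0.10) and Ppp1r13b (-0.10). Hipk2 encodes a kinase that phosphorylates p53, and it went from 6.15 FPKM at 0 h to 26.2 FPKM at 142 h in the first series. Cdkn2a encodes Arf, an inhibitor of Mdm2, besides an inhibitor of cyclin-dependent kinases. In the adherent monoculture 5 rose and 4 fell of 21, beside 35.2% and 23.4%, the rises in Hipk2 (0.13), Trp53bp2 (0.11), Trp53bp1 (0.10), Rfwd2 (0.08) and Kat5 (0.04), and the falls in Cdkn2a (-0.11), Ppp1r13b (-0.09), Rchy1 (-0.07) and Usp7 (-0.07). The splines passed for 17 and 14 of 21, beside 87.6% and 69.6%, and the median slopes were -0.02 and -0.01, beside 0.01 and 0.02. In SFEB the Atm call was lost without the 2 h sample (adjusted p 0.0729) and without those of 0 h (0.147), and its slope was -0.00669 in the parallel series alone and -0.00915 from 20 h on, in a range of adjusted p from 0.000342 to 0.899. Chek2 was lost without the 216 h sample (0.152) and in the first series alone (0.344), Npm1 in the first series alone (0.106) and Ppp1r13b in the parallel series alone (0.796) and from 20 h on (0.341). Their adjusted p ran from 6.44e-06 to 0.344, from 4.23e-05 to 0.106 and from 4.04e-06 to 0.796. Adherent Kat5 was lost in 3 of 8 alternatives, among them the one without the 0 h sample (0.0531), and Ppp1r13b in 2, with 0.0515 without the 0 h sample. Trp53bp1 was lost from 20 h on (0.0615). Adjusted p ran from 0.0155 to 0.0709 for Kat5, from 0.000549 to 0.0729 for Ppp1r13b and from 0.000770 to 0.0615 for Trp53bp1.

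Of the regulators 4 of 21 passed in E14 in each genotype, beside 25.8% of all genes in WT and 19.3% in Fyn-KO. In WT Trp53bp1 (0.70 log2, limma adjusted p 0.00572), Rfwd2 (0.58, 0.0388) and Kat5 (0.53, 0.0321) rose and Ppp1r13b fell by 0.78 (0.0241). In Fyn-KO Trp73 (0.84, 0.0382), Trp53bp1 (0.62, 0.0136) and Rpl11 (0.40, 0.0215) rose and Ppp1r13l fell by 0.63 (0.0184). The list's medians were 0.19 and 0.16, beside 0.08 and 0.05, and no gene of it passed between the genotypes or in the interaction. The WT calls were ended by 11 of 17 alternatives for Rfwd2, 5 for Kat5, 4 for Ppp1r13b and 0 for Trp53bp1, and the Fyn-KO calls by 6 for Trp73, 5 for Rpl11, 4 for Ppp1r13l and 1 for Trp53bp1.

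**Figure D3:**
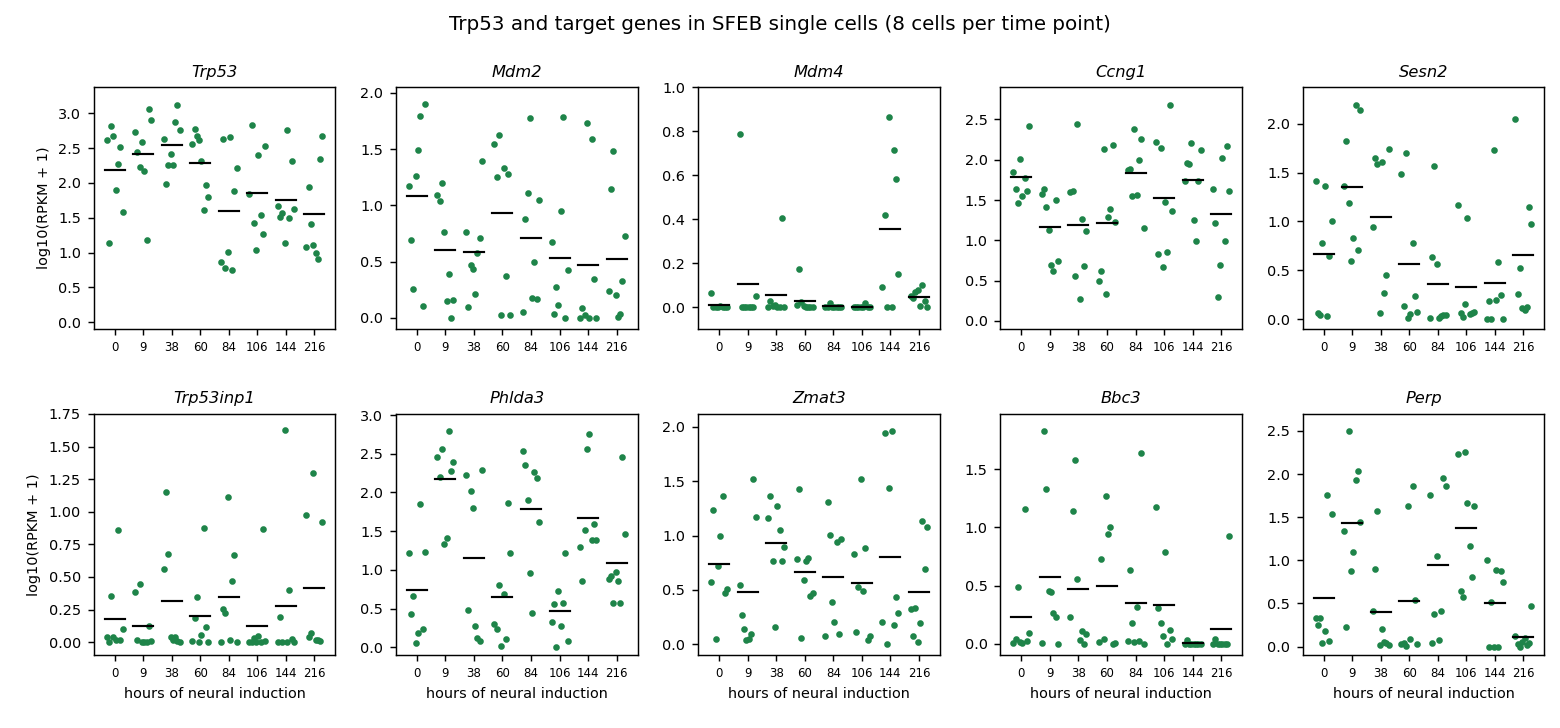
Values of the 10 genes in the 64 SFEB single cells, as log10(RPKM + 1) (vertical axes, 1 panel per gene), against hours of induction (horizontal axes). Each point is 1 cell and each short horizontal line the mean of the 8 cells of a time point. Trp53 has its highest mean at 38 h, 2.54, and the mean of Mdm4 lies near 0 at all hours but 144 h, with single cells at 0.787 at 9 h and 0.407 at 38 h.

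The single cells give 1 culture per time point, so cells are not replicates of an hour. Genes above 0 per cell had medians between 6145 at 144 h and 8972 at 0 h. The summed mean RPKM of the 6 pluripotency markers was 3410 at 0 h and 204 at 216 h, most of it Utf1, and that of the 6 neural progenitor markers 1.59 and 445. The neuron markers, 4 of 6 in the table, summed to 375 at 0 h and 519 at 216 h, with 131 at 38 h and their lowest sum of 58.8 at 144 h, the fibroblast markers, 6 of 10, to between 1.06 at 60 h and 46.8 at 216 h, the mesoderm markers, 4 of 6, to at most 122 at 84 h and the endoderm markers, 2 of 6, to at most 56.0 at 216 h. Their part in the values of the 10 genes was not tested. Trp53, Ccng1 and Zmat3 were above 0 in all 64 cells (exact 95% Clopper-Pearson interval 94.4% to 100%), Phlda3 in 63, Sesn2 in 62, Perp in 60 and Mdm2 in 59. Trp53inp1 was above 0 in 50 cells, Bbc3 in 47 and Mdm4 in 30, or 46.9% (34.3% to 59.8%). Many of these values were near 0. Above 5 RPKM were Trp53 in 63 cells, Ccng1 in 52, Phlda3 in 40, Perp in 26, Zmat3 in 25, Mdm2 and Sesn2 in 24 each, Bbc3 in 12, Trp53inp1 in 9 and Mdm4 in 2. The intervals cover the counting of cells only.

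Mean log10(RPKM + 1) of Trp53 was 2.19, 2.42, 2.54 and 2.29 at 0, 9, 38 and 60 h and 1.60, 1.86, 1.76 and 1.56 at 84, 106, 144 and 216 h. The 4 early means were thus above the 4 late means, with SDs between cells of 0.375 to 0.839. Its slope over the 8 means was -0.10 per 24 h and did not pass (limma p 0.00311, adjusted p 0.0775). Without cell 16 of 216 h the slope was -0.11 (adjusted p 0.0355), in a range from 0.0355 to 0.288 over 4 alternatives. None of the 10 genes passed, beside 2.73% of 11449 genes, 1.67% rising and 1.07% falling. That share went to 4.26% without cell 16 of 216 h, to 0.157% on the log10 of the mean RPKM and to 0 genes without the 216 h time point. The median slope of the 10 was -0.03, beside -0.000209. Of the other targets 1 of 20 passed, Btg2 (0.15, adjusted p 0.0194), which was lost in 2 of 4 alternatives, without the 216 h time point (0.239) and on the log10 of the mean RPKM (0.0679), in a range from 0.0134 to 0.239, and of the regulators 0 of 20.

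Phlda3 had means of 0.74 at 0 h and 2.18 at 9 h. The population samples of those hours in the parallel series went the other way, from 37.3 to 31.8 FPKM. Later it alternated, with 1.16, 0.66, 1.78, 0.47, 1.67 and 1.09. Sesn2 was highest at 9 h, at 1.36, and lowest at 106 h, at 0.33. Perp was at 1.43 at 9 h, 1.37 at 106 h and 0.11 at 216 h, the hour at which its population value was lowest too. Ccng1 stayed between 1.16 and 1.83, and Mdm2 went from 1.082 at 0 h to 0.52 at 216 h. Mdm4 had a mean of 0.35 at 144 h and of at most 0.105 at the other hours, with 7 of 8 cells above 0 at 144 h and also at 216 h, where the mean was 0.0458. Its mean RPKM at 0 and 84 h was 0.0210 and 0.00572, where the parallel populations held 46.9 and 22.5 FPKM after ComBat. At 9 h Mdm2 was at 5.40 RPKM beside 80.3 FPKM and Trp53inp1 at 0.451 beside 49.9. Trp53 at 9 h was at 436 RPKM beside 314 FPKM and Phlda3 at 239 beside 31.8. A value near 0 in the cells thus does not show that a gene is off, and the cause of the gap was not tested. Bbc3 was above 0 in 2 of 8 cells at 144 h and in 2 at 216 h, with means of 0.00422 and 0.12. Whether such differences exceed those between cultures of 1 hour cannot be told from 1 culture per hour.

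p53 binds an element of 20 bases made of 2 copies of a decamer, known as the p53 response element. The search allowed no spacer between the copies and no mismatch at the C and G in the middle of each. It ran on both strands in the genome build NCBIM37 (mm9) within 2000 bases of the annotated start of each gene, and the sequences are shown since the genes were chosen as p53 targets. Elements with at most 1 mismatch were near 2 of the 10 genes, Ccng1 and Zmat3, beside 0.608% of 22380 genes. Those with at most 3 mismatches were near 5, with Bbc3, Mdm2 and Trp53 added, beside 17.3%. The element of Zmat3 had 0 mismatches and lies in an intron at chr3:32263253-32263272 on the minus strand. Ccng1 had 3 elements, all on the minus strand. Of these 2 had 1 mismatch each, in an intron at chr11:40568438-40568457 and upstream at chr11:40568964-40568983, and 1 had 3 mismatches, farther upstream at chr11:40569893-40569912. The elements of Bbc3 (chr7:16894835-16894854, plus strand, upstream), Mdm2 (chr10:117147161-117147180, minus strand, exon outside the coding sequence) and Trp53 (chr11:69393786-69393805, plus strand, upstream) had 3 mismatches. They read as follows, 5′ to 3′, with the whole element in capitals.

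Zmat3: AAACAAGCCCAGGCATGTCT

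Ccng1, intron: ACGCAAGCCCGGGCTAGTCT

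Ccng1, upstream: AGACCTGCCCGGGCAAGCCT

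Ccng1, farther upstream: AGGCATGATGGTGCATGTTT

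Bbc3: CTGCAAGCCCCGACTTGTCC

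Mdm2: GGTCAAGTTGGGACACGTCC

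Trp53: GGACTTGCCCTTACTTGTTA

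RefSeq promoters (build GRCm38.p6) were matched for 7 of the 10 genes, with 10 promoters. The same element with at most 3 mismatches was in 1.38% of all 32851 promoters, and a decamer without mismatch in 8.36%. Of the matched genes, Mdm2, Ccng1 and Trp53 had such a decamer. Trp53, Ccng1 and Bbc3 had a full element, Bbc3 in only 1 of its promoters. The upstream bases of these 3 promoters are shown with it in capitals, to place it before the gene start. The promoter windows are chr11:69580109-69580408 on the plus strand for Trp53, chr11:40755237-40755536 on the minus strand for Ccng1 and chr7:16309333-16309632 on the plus strand for Bbc3. Each run stops at the gene start.

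Trp53: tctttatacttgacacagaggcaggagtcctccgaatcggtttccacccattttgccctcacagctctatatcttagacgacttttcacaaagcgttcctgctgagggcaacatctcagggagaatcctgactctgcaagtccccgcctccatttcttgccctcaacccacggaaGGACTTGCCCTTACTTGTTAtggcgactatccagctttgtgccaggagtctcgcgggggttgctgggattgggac

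Ccng1: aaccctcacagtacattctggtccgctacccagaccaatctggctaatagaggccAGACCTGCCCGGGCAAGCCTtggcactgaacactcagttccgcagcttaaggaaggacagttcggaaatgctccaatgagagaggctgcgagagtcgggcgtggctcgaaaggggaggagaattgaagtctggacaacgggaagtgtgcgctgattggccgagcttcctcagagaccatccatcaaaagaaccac

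Bbc3: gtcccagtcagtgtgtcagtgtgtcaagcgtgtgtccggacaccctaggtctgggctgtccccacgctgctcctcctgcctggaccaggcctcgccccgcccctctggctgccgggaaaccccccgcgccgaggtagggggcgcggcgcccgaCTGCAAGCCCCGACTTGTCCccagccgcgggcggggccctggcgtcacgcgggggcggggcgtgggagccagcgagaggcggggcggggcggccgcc

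Of these 3 genes, Trp53 had a falling slope in SFEB, with a peak at 8 or 9 h. It also fell with time in the adherent monoculture and both E14 genotypes. Ccng1 rose in Fyn-KO and passed the adherent spline, and Bbc3 passed only the SFEB spline. A match of letters is a description, and binding of p53 was not measured.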

How the data were processed

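RNA sequencing values were taken from 4 deposited tables. The authors deposited FPKM for the adherent monoculture and E14 libraries. The SFEB populations were deposited by the authors as FPKM after ComBat, whose batches are not stated, and its 1256 negative values were set to 0. For the 64 cells the deposited unit is log10(RPKM + 1), quantile normalized. The study's methods keep genes above 0.5 RPKM in at least 8 cells, and its count of such genes, 11449, is that of the genes here. Shares over all genes of the cells thus describe a set already filtered. Mdm4 is among them, though above 0.5 RPKM in 6 cells, and why is not settled. The submitters' notes name TopHat2 2.0.8b and Cufflinks 2.1.1, with build mm9, and mm10 for E14, while the study's methods name other releases of both, and which were used is not settled. Genes of at least 1 FPKM in 3 libraries (E14) or above 0.5 FPKM in 8 samples (courses) were tested with limma 3.58.1 in R 4.3.3 on log2(FPKM + 1). E14 was fitted as 1 model of 4 groups, and courses as a slope or a natural spline with 3 degrees of freedom. Single cells were fitted on the means of 8 time points. Tables, sequences and plots were made with Python 3.11.15, numpy 2.4.6, pandas 2.3.3, scipy 1.17.1 and matplotlib 3.10.9. The fits were tested on simulated data. E14 replicates were not treated as pairs. Residuals of WT libraries of the same number at day 0 and day 4 correlated across genes at 0.199, 0.220 and 0.224, and those of Fyn-KO at 0.0239, 0.0899 and 0.00112. Pairs of different numbers correlated at -0.168 to -0.0111 in WT and at -0.0594 to 0.0301 in Fyn-KO. Between genotypes those of the same number correlated at 0.0628, 0.339 and -0.11 at day 0 and at 0.136, 0.258 and 0.240 at day 4. Those of different numbers were at -0.390 to 0.253 at day 0 and at -0.196 to -0.0272 at day 4. Residuals are taken from group means, so same-number and different-number values are not independent. A block of replicate number was therefore run as an alternative. Alternatives also covered the pseudocount (0.1), the filter, scaling, series, omitted libraries and hours. From the lists of other targets and regulators, up to 5 rises and 5 falls past the threshold are named per comparison. The genes, lists and markers (pluripotency, neural progenitor, neuron, fibroblast, mesoderm, endoderm, epidermis) were chosen with earlier results of these data known. Reads and protein were not examined here.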

Additional observations from a re-analysis of the deposited data

Results flagged for a closer look

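In 80 groups, each of 8 single cells of 1 hour read for 1 of the 10 genes, 19 values, from 15 cells, stood far from the other 7 of their group, with a gap to the nearest value above the critical share of the group's range. Chance singles out about 1 in 20 groups, or 5%, where values are spread regularly. That share does not hold for these values, since over all genes of the table the same comparison singled out 38.6% of 86476 groups, beside 23.8% for the 10 genes. Values are log10(RPKM + 1). For Mdm4 the highest cell was at 0.0628 at 0 h, 0.787 at 9 h, 0.407 at 38 h, 0.175 at 60 h, 0.0194 at 84 h and 0.0176 at 106 h, while no other cell of those hours was above 0.0495. For Bbc3 it was at 1.16 at 0 h, 1.64 at 84 h, 0.0333 at 144 h and 0.930 at 216 h, against at most 0.491, 0.633, 0.000489 and 0.0405 in the others. For Trp53inp1 it was at 0.863 at 0 h, 0.876 at 60 h, 0.871 at 106 h and 1.62 at 144 h, against at most 0.356, 0.347, 0.0474 and 0.3998. For Sesn2 it was at 1.57 at 84 h and 1.73 at 144 h, against at most 0.632 and 0.587. Phlda3 was at 2.45 in a cell of 216 h, with the others up to 1.46, and Perp at 0.476 in cell 16 of 216 h, with the others up to 0.125. Trp53 was at 1.18 in cell 08 of 9 h, with the others between 2.18 and 3.06. Many of these groups have most cells at or near 0, so that a single value takes up nearly the whole range. Cell 16 of 216 h holds the highest value for both Bbc3 and Perp, cell 10 of 144 h for both Sesn2 and Trp53inp1, cell 03 of 84 h for both Mdm4 and Sesn2 and cell 06 of 0 h for both Bbc3 and Trp53inp1. Trp53 in cell 16 was at 2.67, the highest of that hour. Causes were not tested.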

How the results depend on the processing

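The tables hold no read counts, single hours have 1 library per series, E14 groups have 3 libraries, and the SFEB values had been adjusted for batches that are not stated, which limits what any fit of these tables can tell. Leaving out a library leaves 2 in its group, with the spread shared across groups. Of 1933 results for single genes under the alternatives, 1693 kept their direction and side of the threshold or moved within the spread, 146 dropped out, 34 came in, 43 turned direction and 17 moved. Where no cause is shown by fewer samples, the cause was not tested. Alternatives without the 2 h or 41.5 h sample and from 20 h on were chosen after seeing the data.

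With no filter on low values 35 genes passed between knockout and wild type at day 0, 24 at day 4 and 1 in the interaction. With a replicate block 38 passed at day 0 and 2 in the interaction. The block brought in Mdm4 and Trp53inp1 in WT and Mdm4 in Fyn-KO, ended Btg2 in Fyn-KO and changed no other call of a named gene. With quantile normalization 17 genes passed at day 4, Perp turned to -0.0855 in the Fyn-KO days and Phlda3 to 0.0295 between genotypes at day 4, as with upper quartile scaling (0.0320).

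Leaving out each E14 library in turn gave 1831 to 3528 called genes between the WT days and 1041 to 3063 between the Fyn-KO days. Between genotypes it gave 4 to 128 at day 0 and 5 to 14 at day 4, and 0 to 4 in the interaction. Of the 10 genes it called 0 to 4 in WT and 2 to 6 in Fyn-KO. The log2 values whose sign turned had ranges of -0.16 to 0.14 for Mdm2 and -0.12 to 0.27 for Perp between the Fyn-KO days. At day 0 between genotypes they were -0.44 to 0.63 for Bbc3 and -0.17 to 0.25 for Zmat3. At day 4 they were -0.23 to 0.16 for Ccng1, -0.00623 to 0.30 for Mdm4, -0.18 to 0.26 for Phlda3 and -0.0501 to 0.14 for Zmat3. In the interaction they were -0.27 to 0.81 for Bbc3, -0.16 to 0.15 for Mdm4, -0.34 to 0.0359 for Trp53 and -0.21 to 0.20 for Zmat3. None of these had passed with all libraries.

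In SFEB the slope turned in the first series alone for Ccng1 (-0.0319) and Zmat3 (-0.0327), and in the parallel series alone for Trp53inp1 (0.00843), Bbc3 (0.00528) and Atm (-0.00669). It turned without the 2 samples of 0 h for Mdm4 (0.00697), and from 20 h on for Mdm4 (0.0249), Fas (0.00249) and Atm (-0.00915). In the adherent monoculture Trp53inp1 turned to 0.0477 without the 216 h sample and to 0.0273 without those of 144 and 216 h. Without the 41.5 h sample 8 of the 10 genes passed the adherent spline, beside 73.8% of all genes, and from 20 h on 3 passed the adherent trend, beside 51.7%.

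In single cells the trend on the log10 of the mean RPKM called 18 genes, without cell 16 of 216 h 488 (4.26%) and 1 of the 10, and without the 216 h time point 0, where Zmat3 turned to 0.00713. The share of values of the 10 genes above 0.5 RPKM was 64.1% and above 5 RPKM 43.3%, beside 45.1% and 27.9% of the values of all genes.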
